A study of Homo sapiens with 12 samples.

Results

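The DNA replication machinery was followed as 41 genes in K562 cells, chosen by gene name from the 58735 genes of the count table, and all 41 were among the 20821 genes with enough reads to be tested. K562, an established human erythroleukemia line, depends on the kinase BCR-ABL1 and makes hemoglobin when given hemin, an iron porphyrin. Nilotinib is a tyrosine kinase inhibitor directed at BCR-ABL1. The 12 libraries came from 3 biological replicates of each of 4 conditions, named here mock DMSO (vehicle only), hemin DMSO (50 μM hemin for 24 h), mock nilotinib (0.1 μM nilotinib without hemin) and hemin nilotinib (0.1 μM nilotinib, then hemin in addition). All 4 conditions share the line and the vehicle. In the study's methods nilotinib precedes hemin by 24 h and collection is at 0 and 24 h of hemin. Hemin and the additional day of culture therefore cannot be told apart. In the nilotinib conditions, neither can hemin and a longer time since nilotinib was given.

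Replication starts when the origin recognition complex (ORC1 to ORC6) marks an origin and CDC6 and CDT1 load the MCM2-7 ring there, a step called licensing, which geminin (GMNN) blocks by binding CDT1. CDC45 and the GINS complex then turn the ring into the active helicase, polymerase α with primase lays primers, polymerases δ and ε extend the strands on the sliding clamp PCNA, which the RFC complex loads, and FEN1 and LIG1 join the lagging-strand fragments while RPA covers single-stranded DNA. Many of these genes are transcribed at the G1/S transition under E2F factors, and erythroid precursors divide rapidly before they leave the cell cycle. Bulk RNA cannot tell fewer cells in S phase from less of these RNAs per cell.

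The E2F element was looked for in the promoters, because it has long been described for this gene group and because many of the genes moved together. It was searched as TTTCCCGC, TTTCGCGC, TTTGCCGC and TTTGGCGC on either strand, from 250 bases before to 50 bases after each RefSeq start (GRCh38.p14). The spellings TTTCGCGC and TTTGGCGC can overlap on opposite strands in the run TTTGGCGCGAAA and were then counted as separate matches. A window was given for 35 of the 41 genes, and for 18 of these 35 (51.4%) at least 1 window held a match, against 6.21% of the 11883 tested genes with a window. Counted by window, 40.9% of the 44 windows of these genes held a match, against 4.63% of the 16994 windows of tested genes and 3.31% of all 35116 windows. Of the 20 genes with a window that fell under hemin alone (below), 13 held a match, as did 4 of the 14 that did not pass the test. A match is a description of letters and not a bound site. The 250 bases before the start are shown for 4 genes that changed and that hold a match, with the matches in capitals. RFC5 and FEN1, which also fell under hemin alone (log2 change -1.01 and -0.90), hold none in their windows. For CDC6, which moved the opposite way, 30 bases across the start are shown.
PCNA promoter, chr20:5126623-5126872, minus strand: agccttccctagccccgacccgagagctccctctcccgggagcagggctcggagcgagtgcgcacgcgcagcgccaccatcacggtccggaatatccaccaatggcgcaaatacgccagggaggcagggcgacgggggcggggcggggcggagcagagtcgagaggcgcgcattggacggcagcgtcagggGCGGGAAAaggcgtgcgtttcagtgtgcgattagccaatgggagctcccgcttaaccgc
POLA2 promoter, chr11:65261712-65261961, plus strand: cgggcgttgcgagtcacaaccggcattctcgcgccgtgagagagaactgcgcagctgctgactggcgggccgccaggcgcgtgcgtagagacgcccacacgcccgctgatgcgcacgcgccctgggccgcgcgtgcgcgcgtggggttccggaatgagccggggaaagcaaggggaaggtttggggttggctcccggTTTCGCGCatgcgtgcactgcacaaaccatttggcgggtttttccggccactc
MCM6 promoter, chr2:135876444-135876693, minus strand: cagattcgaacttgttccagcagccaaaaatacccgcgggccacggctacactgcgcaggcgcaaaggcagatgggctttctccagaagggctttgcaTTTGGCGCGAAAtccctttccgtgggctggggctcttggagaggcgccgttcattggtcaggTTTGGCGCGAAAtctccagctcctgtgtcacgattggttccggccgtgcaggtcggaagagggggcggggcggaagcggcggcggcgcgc
MCM3 promoter, chr6:52284743-52284992, minus strand: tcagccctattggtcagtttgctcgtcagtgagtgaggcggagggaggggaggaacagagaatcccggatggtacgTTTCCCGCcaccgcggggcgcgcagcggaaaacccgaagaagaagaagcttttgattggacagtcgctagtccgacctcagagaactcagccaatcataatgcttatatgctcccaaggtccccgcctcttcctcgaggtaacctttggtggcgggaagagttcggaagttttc
CDC6 promoter, chr17:40287875-40287904, plus strand: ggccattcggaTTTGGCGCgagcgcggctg
In PCNA the match begins 59 bases before the start and reads on the opposite strand, in POLA2 it begins 53 bases before the start, and MCM6 holds an overlapping pair at 152 and 148 bases and another at 90 and 86 bases before it. MCM3 holds a match at 174 bases and another that begins 4 bases before the start and runs past the end of the sequence shown. The CDC6 match begins at base 8, counting the start as base 1, and MCM5, the other gene that rose under hemin alone, has no window here.

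Libraries held 33457078 to 50506990 counted reads, and POLA2, which had the lowest single level of the 41 genes, rested on 119 to 1205 reads. Levels of 1 gene across libraries are given as CPM, counts per 1000000 reads after composition scaling, and levels of different genes are compared only as FPKM, which are also per kilobase. Together the 41 genes held 5508 ± 108 CPM (SD, n = 3) in mock DMSO, 4246 ± 419 in hemin DMSO, 6760 ± 91.4 in mock nilotinib and 6306 ± 1343 in hemin nilotinib. The hemin nilotinib libraries had the widest spread. Of the 41 genes, 37 had their highest value of the 3 in replicate 1 (37.2% of all tested genes did) and 38 their lowest in replicate 3 (34.4% of all), and the median coefficient of variation of the 41 was 25.0%, against 5.12% in mock DMSO, 12.2% in hemin DMSO and 8.28% in mock nilotinib. Over all genes it was 22.8%, 11.6%, 20% and 14.8% in that order. The genes also leaned to single libraries elsewhere. In hemin DMSO 30 of the 41 were highest in replicate 2 (35.3% of all genes) and 25 lowest in replicate 3 (27.1%). In mock nilotinib 27 were highest in replicate 1 (39.0%) and 25 lowest in replicate 3 (34.8%). Counts that rest on hemin nilotinib are therefore also given without each of the hemin nilotinib libraries. The mitochondrial share of reads was 1.45% to 2.88% in hemin DMSO and 5.20% to 8.83% in the other libraries, and its part in the results was not tested. All 8 markers of the line were detected in every condition, with a summed level of at most 1182 CPM in hemin DMSO, 1342 to 2204 CPM in mock DMSO, 6278 to 7528 CPM in mock nilotinib and 4238 to 7190 CPM in hemin nilotinib. GATA1, TAL1, LMO2 and KLF1 fell under hemin alone and rose with nilotinib under hemin, as many replication genes did, whereas the globin genes HBG1 and HBG2 rose in both. KLF1, an erythroid transcription factor, had 222.8 to 330 CPM in mock DMSO, 22.2 to 26.2 in hemin DMSO, 682 to 770 in mock nilotinib and 530 to 751 in hemin nilotinib. The part of the line's erythroid state in the results was not tested. Markers of other cells were low but moved with the conditions. Those of T cells (CD3E and CD3D) summed to 2.48 to 8.6 CPM in mock DMSO, 5.66 to 13.4 in hemin DMSO and 0.0575 to 0.412 in the nilotinib conditions. Those of fibroblasts (COL1A1 and COL1A2) summed to 8.53 to 14.1 CPM in mock DMSO, 24.1 to 31.2 in hemin DMSO and 9.37 to 22.7 in the nilotinib conditions. Those of epithelia (EPCAM and KRT5, the latter at 0 in both mock conditions) summed to 61.1 to 65.3 CPM in mock DMSO, 44.4 to 65.5 in hemin DMSO, 37.5 to 47.3 in mock nilotinib and 27.7 to 35.3 in hemin nilotinib. Their part in the results was not tested.

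**Figure D1:**
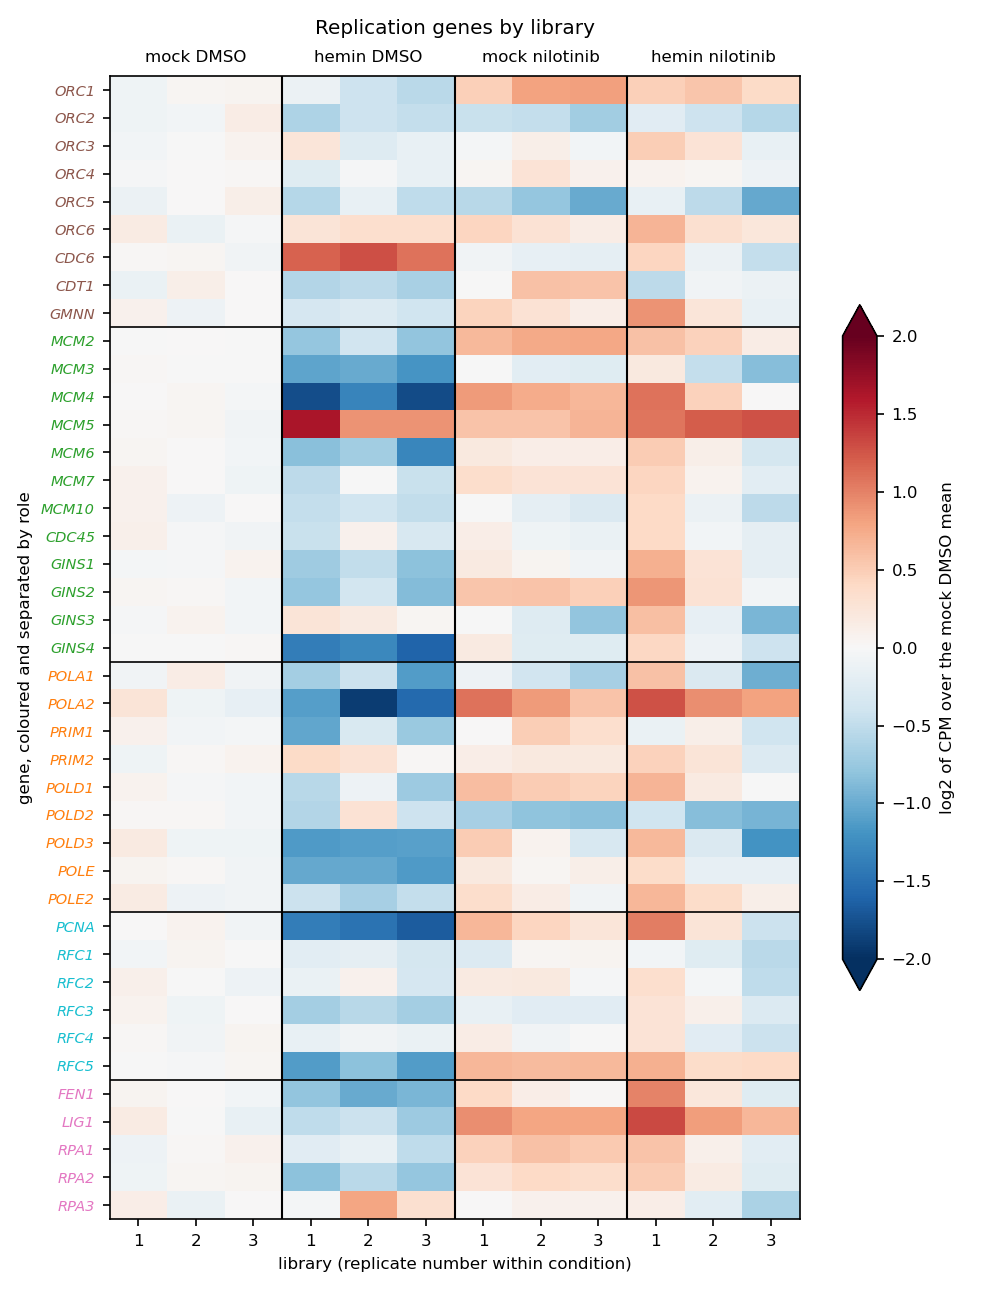
Level of each of the 41 replication genes (rows, by role) in each of the 12 libraries (columns), as log2 of CPM over the mean of the 3 mock DMSO libraries (colour). Hemin DMSO is mostly blue, with CDC6 and MCM5 red. Mock nilotinib is mixed, with ORC2, ORC5 and POLD2 blue. In replicates 1, 2 and 3 of hemin nilotinib, 35, 24 and 9 of the 41 genes are above the mock DMSO mean (median log2 difference 0.49, 0.11 and -0.24).

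Most of the machinery was lower in cells given hemin alone. Of the 41 genes, 24 were lower and 2 higher in hemin DMSO than in mock DMSO at an adjusted p under 0.05 (edgeR quasi-likelihood test, two-sided, Benjamini-Hochberg over all 20821 genes), where 27.8% of all tested genes were lower and 25.7% higher. Without composition factors those shares of all genes were 36.4% and 18.6%. The median log2 change of the 41 was -0.50, and that of all tested genes -0.05. The fall was seen in 8 of the 12 helicase genes, 7 of the 9 polymerase genes, 3 of the 6 clamp and loader genes, 3 of the 5 maturation and single-strand binding genes, and 3 of the 9 licensing genes. CDC6 and MCM5 rose against their groups.

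MCM4, a subunit of the helicase ring, had 385, 395 and 374 CPM in mock DMSO and 112, 154 and 111 CPM in hemin DMSO. Every hemin library was below every mock library, and the log2 change was -1.61 ± 0.21 (SE, adjusted p = 1.24e-05). PCNA, the clamp, went from 123, 127 and 115 CPM to 46.6, 43.5 and 38.4 CPM, a log2 change of -1.51 ± 0.25 (adjusted p = 0.000106). POLA2, the B subunit of polymerase α, stood at 17.1, 13.4 and 12.7 CPM in mock DMSO and at 6.65, 3.80 and 4.82 CPM in hemin DMSO, a log2 change of -1.5 ± 0.21 (adjusted p = 2.59e-05). These were the 3 largest falls, and in none of them did the libraries of both conditions overlap. Falls of more than 1 on the log2 scale also came in GINS4 (-1.42), POLD3 (-1.11), MCM3 (-1.08), POLE (-1.06) and RFC5 (-1.01).

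Both rises were of similar size. CDC6, the ATPase that loads the ring with ORC, had 117, 118 and 110.0 CPM in mock DMSO and 259.7, 279.8 and 244 CPM in hemin DMSO, and its log2 change was 1.18 ± 0.17 (adjusted p = 3.36e-05). MCM5 had 203, 206 and 191 CPM in mock DMSO and 622, 375 and 374 CPM in hemin DMSO, a log2 change of 1.19 ± 0.17 (adjusted p = 2.96e-05). Replicate 1 of hemin DMSO was well above the other two libraries of its condition for MCM5, and all 3 were above every mock library. CDT1, the partner of CDC6 in loading, fell from 479, 567 and 527 CPM to 349.6, 363 and 335 CPM, by 0.59 on the log2 scale (SE 0.17, adjusted p = 0.00816). Geminin had 72.4, 63.6 and 68.5 CPM in mock DMSO and 53.9, 56.5 and 51.4 CPM in hemin DMSO, values that do not overlap but did not pass the test (log2 change -0.34 ± 0.19, adjusted p = 0.152).

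Of the other ring subunits, MCM2 was at 177, 179.9 and 178 CPM in mock DMSO and at 104, 137 and 103 CPM in hemin DMSO. MCM3 went from 317, 310.2 and 311 CPM to 151, 156 and 139 CPM, and MCM6 from 189, 185 and 178 CPM to 103, 114 and 74.6 CPM. These 3 fell by 0.64, 1.08 and 0.92 on the log2 scale, with no overlap between libraries. MCM7 had 811, 763 and 717 CPM against 529, 758 and 559 CPM and overlapped (log2 change -0.31, adjusted p = 0.140). Replicate 2 of hemin DMSO decided this: without it the change was -0.48 with an adjusted p of 0.0250. MCM10, which bridges the helicase and polymerase α, was at 71.1, 62.7 and 67.6 CPM in mock DMSO and 48.3, 50.9 and 47.5 CPM in hemin DMSO, a change of -0.46 (adjusted p = 0.0367) that missed the threshold without any 1 of 5 of the 6 libraries (adjusted p = 0.0586 to 0.106). CDC45, the helicase cofactor, had 291, 267 and 257 CPM and then 200.0, 289 and 216 CPM, with overlap and no call (-0.21, adjusted p = 0.305).

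Among the remaining genes, falls were called in GINS1 and GINS2, subunits of the helicase cofactor GINS (-0.67 and -0.65), in POLA1, PRIM1, POLD1 and POLE2 of the polymerases (-0.72, -0.67, -0.44 and -0.53), in RFC3 (-0.64), in FEN1, LIG1 and RPA2 (-0.90, -0.55 and -0.70), and in ORC1 and ORC2 (-0.35 and -0.50). The calls of ORC1, GINS2, POLA1, POLD1 and POLE2 were each lost in at least 1 of the fits that left out a library, of which hemin DMSO replicate 3 mattered most (without it, ORC1 -0.24 with an adjusted p of 0.204, GINS2 -0.54 with 0.0545, POLA1 -0.53 with 0.177 and POLD1 -0.30 with 0.219). ORC1 was also lost without mock DMSO replicate 2 or 3 or hemin DMSO replicate 2 (adjusted p = 0.0800 to 0.101), POLA1 without mock DMSO replicate 2 or 3 or hemin DMSO replicate 1 (0.0513 to 0.101), and POLD1 without any mock DMSO library or hemin DMSO replicate 1 (0.0546 to 0.141). For POLE2 it was hemin DMSO replicate 2 (-0.46, adjusted p = 0.0537). The calls of ORC1, MCM10 and POLD1 were also lost with DESeq2 (adjusted p = 0.0818, 0.0647 and 0.0773), and these and POLA1 with RLE or upper-quartile factors (0.0544 to 0.155) and with limma (0.0643 to 0.0917). No change was called in ORC3 to ORC6, GINS3, PRIM2, POLD2, RFC1, RFC2, RFC4, RPA1 and RPA3, whose log2 changes lay between -0.40 and 0.39. ORC6 had 60.2, 49.0 and 52.6 CPM in mock DMSO and 64.0, 68.2 and 67.9 CPM in hemin DMSO, higher without overlap, with a log2 change of 0.31 (adjusted p = 0.0712), and it passed in 9 alternatives, among them DESeq2 (0.35, 0.0410) and upper-quartile factors (0.43, 0.0111). POLD2 passed without hemin DMSO replicate 2 (-0.49, adjusted p = 0.0148) and RPA3 without hemin DMSO replicate 1 (0.58, adjusted p = 0.0230). In the loader, RFC3 and RFC5 therefore passed the test while the other three subunits did not. Differences between subunits were not tested.

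**Figure D2:**
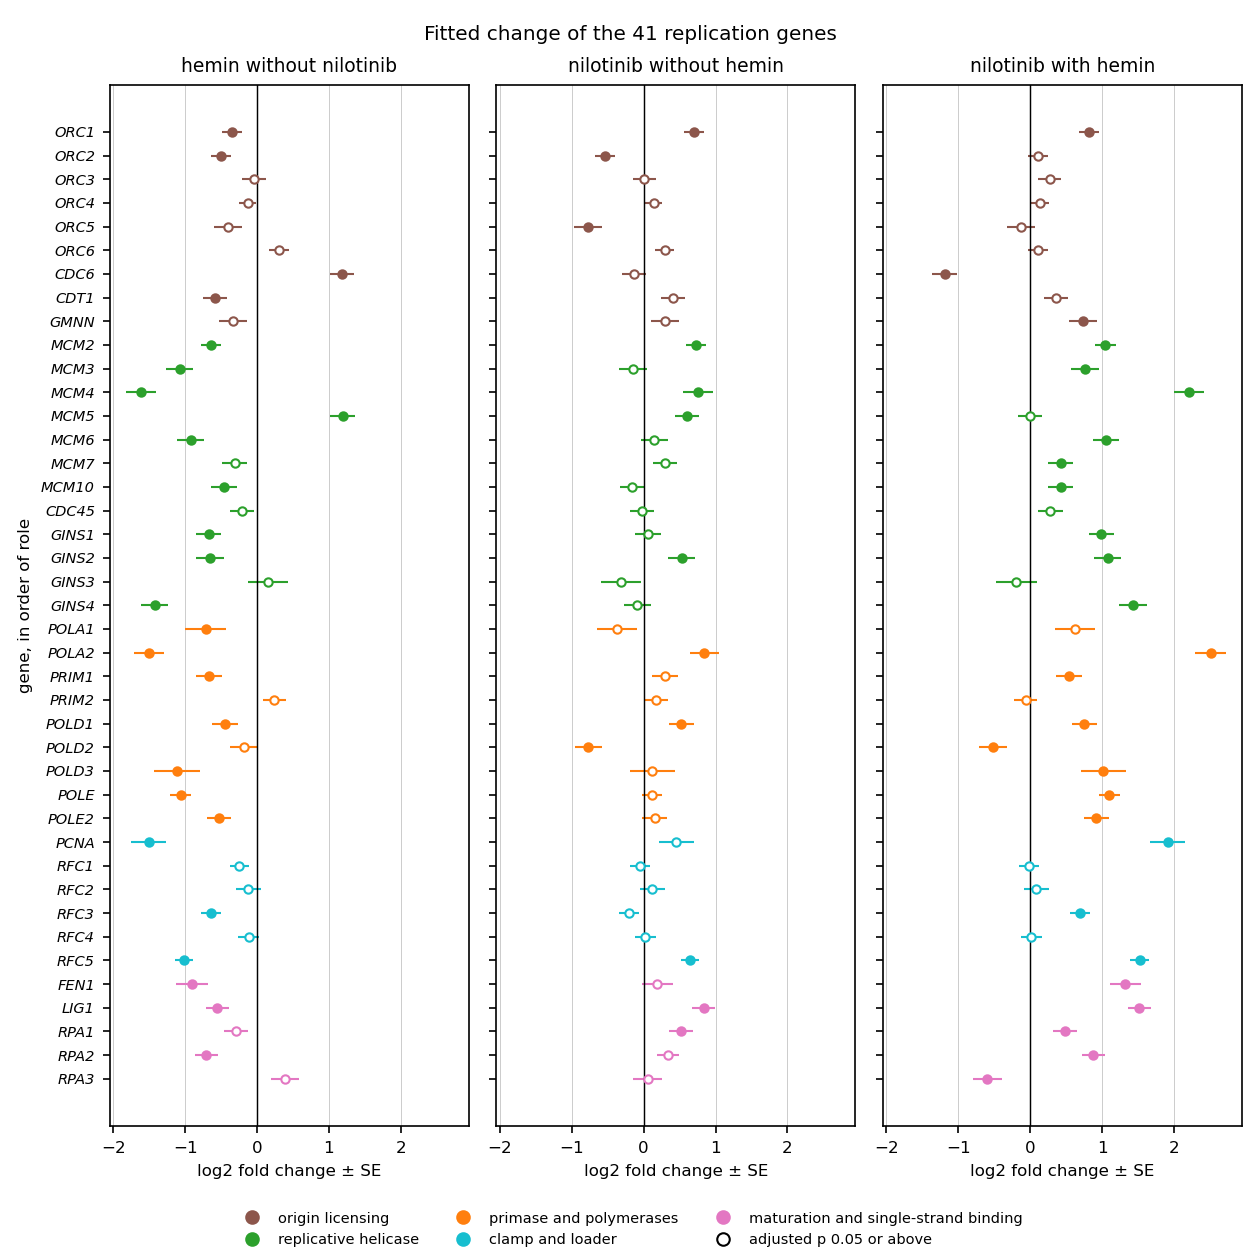
Fitted log2 fold change with its standard error (x axis) of each of the 41 genes (y axis, by role) for hemin without nilotinib, nilotinib without hemin and nilotinib with hemin, 3 libraries against 3. Filled points passed an adjusted p of 0.05: 26, 13 and 27 genes. Most points lie left of 0 under hemin alone and right of 0 for nilotinib with hemin, and CDC6 does the opposite in both.

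With nilotinib already present, no such fall was measured. Between mock nilotinib and hemin nilotinib 1 gene was lower and 0 were higher (edgeR), where 2.28% and 3.52% of all tested genes were, or 2.62% and 2.53% without composition factors. The median log2 change of the 41 was -0.02, with 20 genes above 0 and 21 below, and 4 had an unadjusted p under 0.05. CDT1 was the lower gene, at 518, 784 and 780.2 CPM in mock nilotinib and 362, 498 and 484 CPM in hemin nilotinib (log2 change -0.63 ± 0.17, adjusted p = 0.0388), without overlap. Its call was lost without mock nilotinib replicate 2 (-0.56, adjusted p = 0.169) or 3 (-0.57, 0.150) and without hemin nilotinib replicate 1 (-0.50, 0.0529) or 2 (-0.74, 0.0709), with limma (0.0713 and 0.0739) and in the 6 libraries alone (0.136). MCM5, at 296, 296 and 319.8 CPM and then 421, 464 and 485 CPM, had a log2 change of 0.59 ± 0.17 with an adjusted p of 0.0528. With a block for the replicate number it had 0.59 with 0.0455 in all 12 libraries and 0.59 with 0.0194 in these 6 alone. In these 6 alone 0.641% of all genes were higher and 0.345% lower without the block, and 4.25% and 4.36% with it. The median of the 41 with that block was -0.05. Without hemin nilotinib replicate 1 the median of the 41 was -0.24. There 4 genes were lower (MCM3, MCM4, POLD3 and RPA1) and 1 higher (MCM5), where 4.70% and 8.08% of all tested genes were. Without replicate 2 the median was -0.01, with 0 lower and 0 higher (0.427% and 0.887% of all). Without replicate 3 it was 0.16, with 1 lower gene and 0 higher (1.96% and 1.90% of all). An absence of calls here is therefore limited by the spread within hemin nilotinib, and the number of calls also depends on whether the replicates are paired.

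In cells given nilotinib alone, the counts of called genes in the fit of all 12 libraries were near or below those over all genes. In mock nilotinib against mock DMSO 10 of the 41 genes were higher and 3 lower, where 20.7% and 21.8% of all tested genes were. In a fit of these 6 libraries alone 17 were higher, with CDT1, GMNN, ORC6, MCM7, PRIM1, PCNA and RPA2 in addition. The median log2 change was 0.15 for the 41 and 0.00 for all genes. POLA2 rose from 17.1, 13.4 and 12.7 CPM to 30.3, 26 and 21.3 CPM (log2 change 0.84 ± 0.20, adjusted p = 0.00335). LIG1, the ligase that seals lagging-strand fragments, rose from 118, 104 and 95.4 CPM to 200.3, 182 and 183 CPM (0.83 ± 0.16, adjusted p = 0.000501), and MCM4 from 385, 395 and 374 CPM to 697, 646 and 609 CPM (0.76 ± 0.21, adjusted p = 0.00791). Libraries of these 3 genes did not overlap between conditions. MCM2 (0.73), ORC1 (0.71), RFC5 (0.65), MCM5 (0.60), GINS2 (0.53), POLD1 (0.52) and RPA1 (0.52) also rose, the last 3 with calls that were lost without 1 or more of the 6 libraries: leaving out any single one gave adjusted p values of 0.0754 to 0.122 for GINS2 (limma 0.0540 and 0.0575) and 0.0608 to 0.103 for POLD1, and RPA1 missed the threshold in 4 of the 6 cases (0.0543 to 0.111).

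The lower genes were ORC5, ORC2 and POLD2. ORC5 had 28.2, 30.7 and 33.3 CPM in mock DMSO and 20.8, 17.9 and 15.2 CPM in mock nilotinib (log2 change -0.77 ± 0.20, adjusted p = 0.00473). POLD2, the second subunit of polymerase δ, had 189, 189.5 and 179 CPM and then 117, 107 and 104 CPM (-0.77 ± 0.19, adjusted p = 0.00418). ORC2 had 34.8, 35.6 and 41 CPM and then 27.2, 26.5 and 22.9 CPM (-0.54 ± 0.14, adjusted p = 0.00454). Each was below every mock DMSO library in all 3 nilotinib libraries. So within the origin recognition complex ORC1 rose while ORC2 and ORC5 fell, and ORC3, ORC4 and ORC6 had changes of 0.01, 0.14 and 0.29 that did not pass. CDC6 (-0.14), CDT1 (0.41), GMNN (0.29), PCNA (0.45) and MCM3, MCM6, MCM7, MCM10 and CDC45 (-0.16 to 0.30) did not pass either. PCNA had 192, 164 and 143 CPM in mock nilotinib and GMNN 93.1, 83.3 and 74.4 CPM, in each case above every mock DMSO library although the test was not passed. MCM3, at 311, 271 and 265 CPM, and MCM10, at 66.6, 59.1 and 54.6 CPM, overlapped with mock DMSO. CDT1 had 1 mock nilotinib library at 518 CPM beside 784 and 780.2 CPM. Without that library its change was 0.58 (adjusted p = 0.00963).

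Under hemin, most of the machinery was higher with nilotinib than with vehicle. In hemin nilotinib against hemin DMSO 24 of the 41 genes were higher and 3 lower, where 32.4% of all tested genes were higher and 31.8% lower. The median log2 change of the 41 was 0.62, against 0.02 for all genes. This comparison shares the hemin DMSO libraries with that of hemin alone, so genes low in them are both lower there and higher here. Rises were called in 9 of 12 helicase genes, 6 of 9 polymerase genes, 3 of 6 clamp and loader genes, 4 of 5 maturation and single-strand binding genes, and 2 of 9 licensing genes. Without hemin nilotinib replicate 1 the counts were 21 higher and 4 lower (31.8% and 31.5% of all genes) with a median of 0.44. GINS3 was lower there (-0.64, adjusted p = 0.0199). Without replicate 2 the counts were 21 higher and 2 lower (29.2% and 29.1% of all) with a median of 0.67. Without replicate 3 they were 26 higher and 1 lower (29.9% and 31.2% of all) with a median of 0.84. ORC3 (0.44, 0.0199) and POLA1 (0.94, 0.00202) were then among the higher genes. ORC3 also passed without hemin DMSO replicate 1 (0.43, 0.0347), and POLA1 (0.79, 0.0484) and CDC45 (0.46, 0.0260) without hemin DMSO replicate 2. Without hemin DMSO replicate 2 or 3, the lower genes were 1 and 3 (29.5% and 29.1% of all genes).

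POLA2 rose most, from 6.65, 3.80 and 4.82 CPM in hemin DMSO to 34.6, 27.3 and 24.9 CPM in hemin nilotinib, a log2 change of 2.51 ± 0.21 (adjusted p = 7.59e-08). MCM4 rose from 112, 154 and 111 CPM to 819, 529 and 388 CPM (2.20 ± 0.21, adjusted p = 2.91e-07). PCNA went from 46.6, 43.5 and 38.4 CPM to 248, 146 and 89.9 CPM (1.91 ± 0.25, adjusted p = 6.93e-06). In all 3 genes the lowest nilotinib library stood above the highest vehicle library, although PCNA ranged widely within hemin nilotinib. Next came RFC5 (1.52), LIG1 (1.52), GINS4 (1.43), FEN1 (1.32), POLE (1.10), GINS2 (1.08), MCM6 (1.05), MCM2 (1.04), POLD3 (1.02), GINS1 (0.99) and POLE2 (0.92). MCM6 had 260.3, 199 and 144 CPM with nilotinib against 103, 114 and 74.6 CPM, and MCM2 268, 244 and 198 CPM against 104, 137 and 103 CPM, neither with overlap. Smaller rises were called in RPA2 (0.88), ORC1 (0.82), MCM3 (0.76), POLD1 (0.75), GMNN (0.73), RFC3 (0.69), PRIM1 (0.54), RPA1 (0.48), MCM7 (0.43) and MCM10 (0.42).

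The rises in GMNN, MCM3, MCM7, MCM10, POLD3, PRIM1 and RPA1 changed in size or lost their call with single libraries, in all but PRIM1 most with hemin nilotinib replicate 1. GMNN had 127, 80.2 and 61.6 CPM in hemin nilotinib against 53.9, 56.5 and 51.4 CPM, and MCM3 358, 226 and 174 CPM against 151, 156 and 139 CPM. Both kept their call without replicate 1, at 0.41 and 0.44. MCM7, at 1028, 797 and 655 CPM against 529, 758 and 559 CPM, had 0.25 without it (adjusted p = 0.179), and MCM10, at 88.2, 61.9 and 46.6 CPM against 48.3, 50.9 and 47.5 CPM, had 0.16 (adjusted p = 0.326). POLD3 had 0.44 (adjusted p = 0.101) and RPA1 0.26 (adjusted p = 0.113). MCM7 also missed the threshold without any of 3 other libraries (0.0688 to 0.151), MCM10 without any of 4 others (0.0640 to 0.110) and RPA1 without hemin DMSO replicate 3 (0.0904). MCM7 and MCM10 were also lost with DESeq2 (0.0576 and 0.0818), limma (0.0858 to 0.140) and the 6 libraries alone (0.104 and 0.0886), and POLD3 and RPA1 with limma (0.0545 to 0.0842). PRIM1 was lost without hemin DMSO replicate 1 (0.39, adjusted p = 0.0825) or 3 (0.50, 0.0553) or hemin nilotinib replicate 2 (0.41, 0.0904).

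CDC6 was again the exception. It was lower with nilotinib, at 155, 106 and 82.6 CPM in hemin nilotinib against 259.7, 279.8 and 244 CPM in hemin DMSO (log2 change -1.19 ± 0.17, adjusted p = 1.89e-05), without overlap. RPA3, the small subunit of the single-strand binding complex, was at 37.1, 29.4 and 21.9 CPM against 33, 58.4 and 42.3 CPM (-0.60 ± 0.20, adjusted p = 0.0150), whereas RPA1 and RPA2 rose. POLD2 was at 141, 103 and 97.6 CPM against 124, 227 and 139 CPM (-0.52 ± 0.19, adjusted p = 0.0267), whereas POLD1 and POLD3 rose. RPA3 and POLD2 overlapped, and both were lost without hemin DMSO replicate 2 (-0.35 and -0.20, adjusted p = 0.119 and 0.256) or hemin nilotinib replicate 3 (-0.41 and -0.40, adjusted p = 0.0780 and 0.104), POLD2 also without hemin nilotinib replicate 2 (-0.45, 0.101). Neither passed without composition factors (0.113 for POLD2, 0.0638 for RPA3) or in the 6 libraries alone (0.0873 and 0.0577). CDT1 had 362, 498 and 484 CPM against 349.6, 363 and 335 CPM (0.36, adjusted p = 0.0733), and 0.50 with an adjusted p of 0.0116 without hemin nilotinib replicate 1. CDC45 had 357, 260.4 and 239.6 CPM against 200.0, 289 and 216 CPM (0.28, adjusted p = 0.151). MCM5 had 421, 464 and 485 CPM against 622, 375 and 374 CPM, a change of 0.00 ± 0.17 on the log2 scale, and 0.29 (adjusted p = 0.0659) without hemin DMSO replicate 1.

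**Figure D3:**
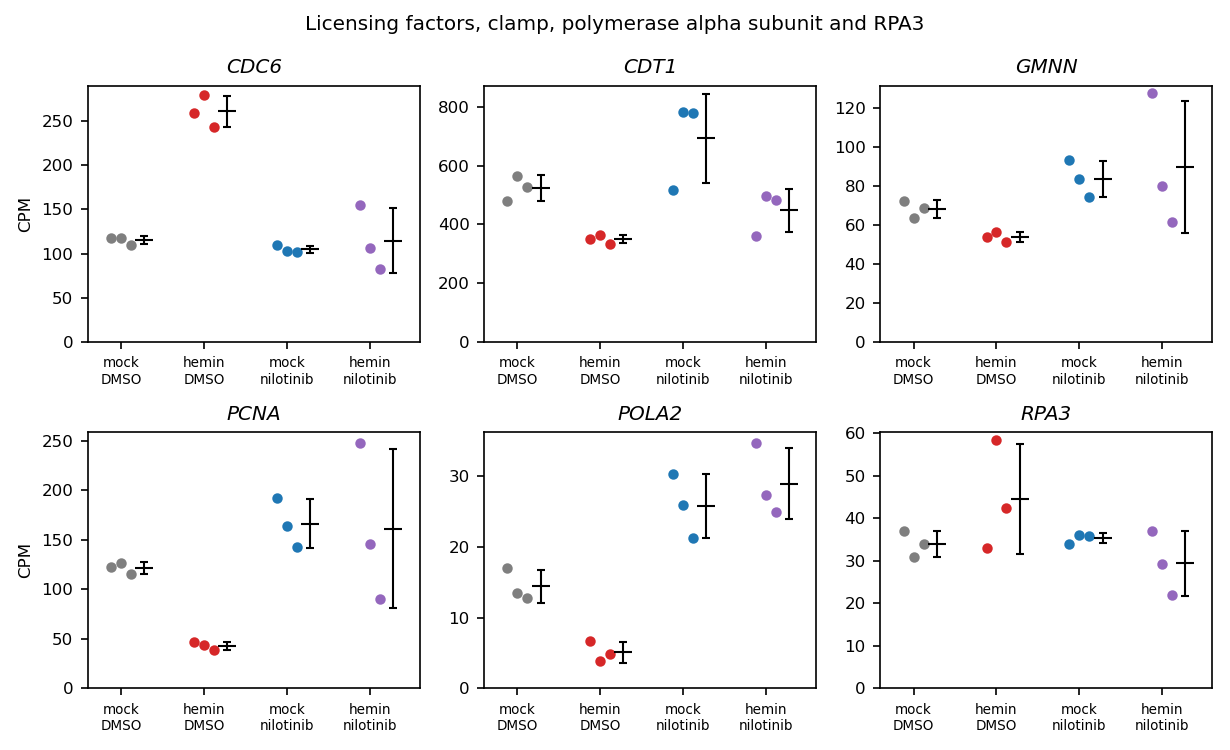
CPM (y axis, from 0) of CDC6, CDT1, GMNN, PCNA, POLA2 and RPA3 in each library of the 4 conditions (coloured points), with mean and SD of 3 libraries (black). CDC6 is above 240 CPM only in hemin DMSO, where PCNA and POLA2 have their lowest values.

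The 6 ring subunits, which assemble in equal numbers, were not at equal FPKM. Per length, MCM7 was the highest in all 12 libraries (172 ± 9.93 FPKM in mock DMSO, SD, n = 3). MCM5 was the lowest of the 6 in every mock library (26.9 ± 1.07 FPKM in mock DMSO and 41 ± 1.92 in mock nilotinib), MCM4 in every hemin DMSO library (18.2 ± 3.65 FPKM), and MCM2 or MCM6 in hemin nilotinib. These FPKM divide by all annotated exon bases of a gene, 7338 for MCM5, 6973 for MCM4, 4902 for MCM2 and 4118 for MCM6. Before that division MCM5 had a mean of 200 CPM in mock DMSO, above MCM2 (178) and MCM6 (184). The order of the subunits and the distance between them therefore depend on the length used. The ratio of MCM5 to MCM4 FPKM was 0.486 to 0.502 in mock DMSO, 2.32 to 5.27 in hemin DMSO, 0.403 to 0.499 in mock nilotinib and 0.489 to 1.19 in hemin nilotinib. It was thus above 2 in the hemin DMSO libraries and under 1.2 in the other 9. This ratio, like that of CDC6 to ORC1 below, sets a gene called higher under hemin alone over one called lower. Both ratios restate those changes and are no separate result. The highest of the 6 was 6.2 to 6.67 times the lowest in mock DMSO, 7.50 to 7.99 times in hemin DMSO, 4.84 to 5.49 times in mock nilotinib and 3.76 to 4.29 times in hemin nilotinib. The ratio of CDC6 to ORC1 FPKM was 0.407 to 0.480 in mock DMSO and 1.08 to 1.43 in hemin DMSO, and 0.222 to 0.427 in the nilotinib conditions. CDT1 exceeded its inhibitor GMNN per length 2.11 to 7.78 times, with no separation of the conditions.

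**Figure D4:**
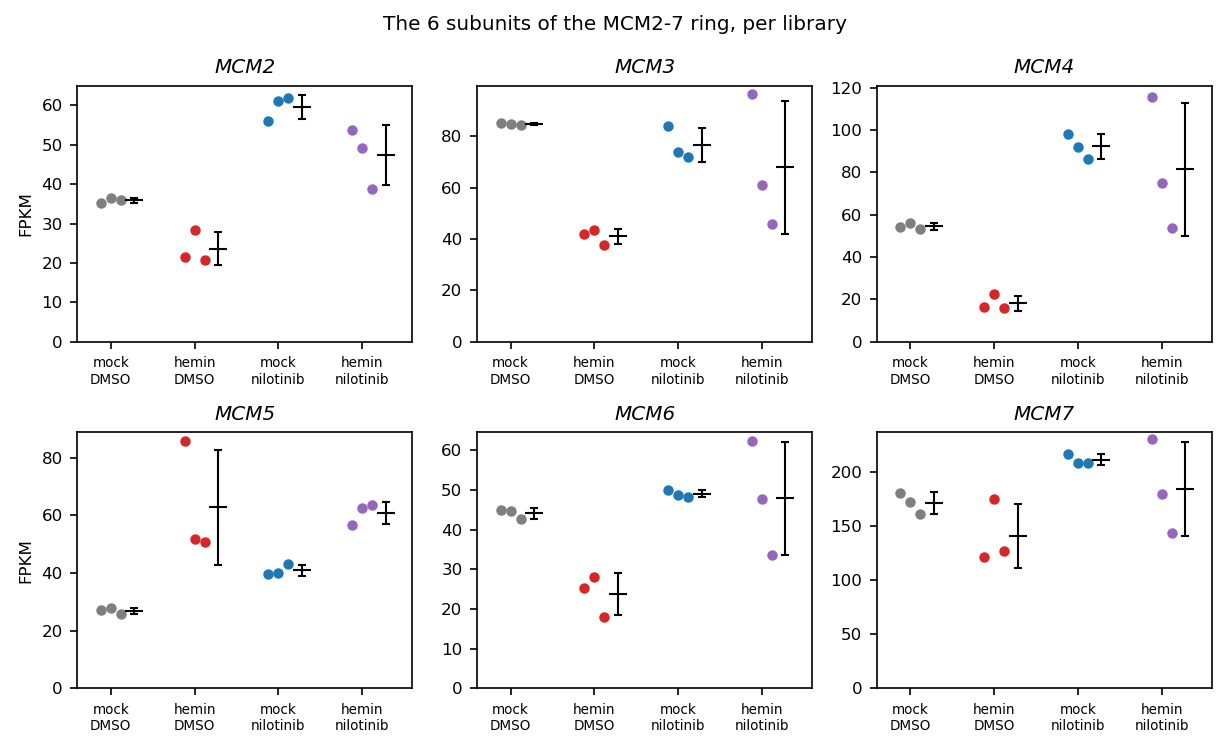
FPKM (y axis, from 0, a scale of its own for each gene) of MCM2 to MCM7 in each library of the 4 conditions (coloured points), with mean and SD of 3 libraries (black). Hemin DMSO is lowest for MCM2, MCM3, MCM4 and MCM6, MCM5 is above mock DMSO in the other 3 conditions, and the points of hemin nilotinib spread widely in all but MCM5.

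MCM5 lies at chr22:35400063-35425430 on the plus strand (GRCh38), and the gene before it on that strand, 5848 bases away, is HMOX1, the heme oxygenase induced by hemin. Their exons do not overlap in GENCODE 29. HMOX1 had 0.0540 to 0.135 CPM in mock DMSO, 31.7, 71.9 and 41.2 CPM in hemin DMSO, at most 0.0583 CPM in mock nilotinib, and 0.402, 1.89 and 2.20 CPM in hemin nilotinib. The part of HMOX1 transcription in the MCM5 values was not tested. CDC6 (chr17:40287633-40304657, plus strand) shares no exon base with another gene.

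Exons shared with other genes could have altered some counts, since the strand setting of the counting is not given in the sources used here. POLA2 (chr11:65261762-65305589, plus strand) has 35.1% of its exon bases in common with a read-through transcript on its own strand, AP000944.2, which had 0 to 11 reads a library. How reads in the shared part were counted is not given in the sources used here. MCM2 has 23.6% in common with AC023593.1 and TPRA1 on the opposite strand, and TPRA1 itself rose with nilotinib under hemin (log2 change 1.5) and had -0.02 under hemin alone. The part of TPRA1 in the MCM2 values was not tested. GINS4 shares 23.6% with 2 genes on the opposite strand, of which AC009630.2 had 2 to 30 reads against 338 to 1497 for GINS4. PRIM1 shares 16.2% of its exon bases with AC117378.1 and NACA on its own strand, and 5.42% with HSD17B6 on the opposite strand. AC117378.1 had 0 to 6 reads, and the reads of NACA and HSD17B6 were not looked at. The part of these genes in the PRIM1 values was not tested. PRIM2 shares 2.86% of its 150-base words with 2 other annotated genes. GINS3, RFC5 and MCM7 share 10.9%, 10.6% and 8.94% of their exon bases with genes on the opposite strand, and POLD1 8.64% with a gene on its own. PCNA (chr20:5114953-5126626, minus strand), MCM3, MCM4, MCM5 and MCM6 share neither exon bases nor words with another gene.

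Whether nilotinib acted differently with and without hemin was tested as an interaction, the nilotinib change with hemin minus that without. By the methods, more time had passed since nilotinib was given in hemin nilotinib than in mock nilotinib. Hemin and that time cannot be told apart here. The interaction was above 0 at an adjusted p under 0.05 in 14 of the 41 genes and below 0 in 1, where 17.1% and 13% of all tested genes were (23.0% and 8.41% without composition factors, 14.0% and 16.2% with upper-quartile factors). The median interaction was 0.44 for the 41 and 0.06 for all genes. Its largest values were in POLA2 (1.66 ± 0.29), GINS4 (1.52 ± 0.27), PCNA (1.46 ± 0.35) and MCM4 (1.45 ± 0.29), whose changes with hemin were given above. Without hemin, GINS4 had 26.9, 26.8 and 27.4 CPM in mock DMSO and 30.6, 22.8 and 22.7 CPM in mock nilotinib, and with hemin 10.4, 11 and 8.88 CPM in hemin DMSO and 36.1, 25.1 and 20.4 CPM in hemin nilotinib. The nilotinib contrast in GINS4, PCNA, FEN1, POLE, GINS1, MCM3, MCM6, RFC3 and POLE2 passed the test with hemin and not without it, and for these 9 the interaction passed as well. CDC6 was the gene below 0 (-1.05 ± 0.24, adjusted p = 0.00430). MCM5, at -0.60 ± 0.24, did not pass (adjusted p = 0.0684), but did without hemin DMSO replicate 2 (-0.73, 0.0292) or 3 (-0.74, 0.0343). Without hemin nilotinib replicate 3 the count above 0 was 21 (18.2% of all genes) with a median of 0.69. Without replicate 2 it was 14 (15.0% of all) with a median of 0.55, and without replicate 1 it was 13 (17.3% of all) with a median of 0.26. With limma the interaction of MCM3 (adjusted p = 0.0505 and 0.0540) and of LIG1 (0.0602 and 0.0662) did not pass, nor did LIG1 with upper-quartile factors (0.0517). The genes gained without replicate 3 were ORC5, GMNN, MCM10, GINS2, POLA1, POLD3 and RPA2 (0.69 to 1.33). RPA3 passed below 0 without hemin nilotinib replicate 1 or hemin DMSO replicate 1 (-0.84 in both).

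**Figure D5:**
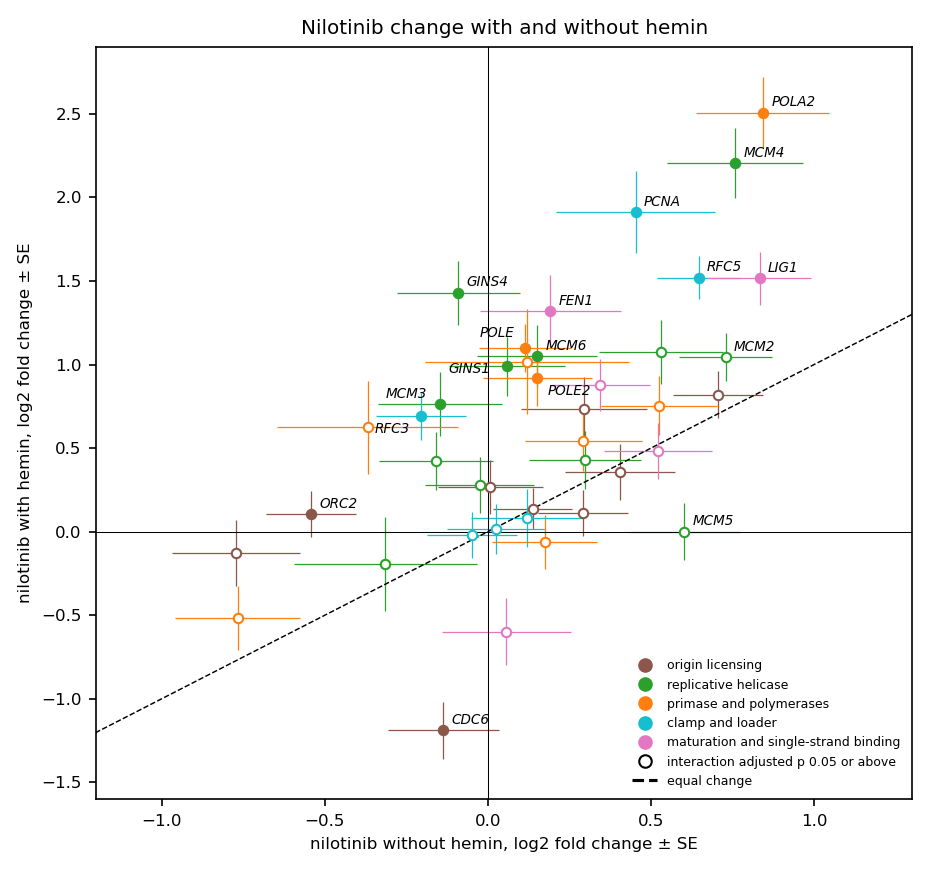
Log2 fold change of nilotinib against vehicle without hemin (x axis) and with hemin (y axis) for the 41 genes, with standard errors, 3 libraries a condition. Filled points are the 15 genes whose interaction passed an adjusted p of 0.05, and the dashed line marks equal change. Filled genes lie above the line except CDC6.

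The other 52 genes of the pathway, listed by role beside the machinery, were counted in the same way. Of the 52, 33 were lower and 4 higher under hemin alone (27.8% and 25.7% of all tested genes), and 40 were higher and 1 lower with nilotinib under hemin (32.4% and 31.8%). With nilotinib alone 16 were higher, 5 lower and 31 not called (20.7% and 21.8% of all genes were called), and under hemin after nilotinib 3 were higher and 49 not called (3.52% higher). In the interaction 23 were above 0 and 29 not called (17.1% above 0). Their median log2 changes were -0.53, 0.78, 0.34, 0.01 and 0.55. Among 11 firing and fork factors, 6 fell under hemin alone and 9 rose with nilotinib under hemin, as in WDHD1, a fork scaffold (-1.39 and 1.64), and TIMELESS, of the fork protection complex (-1.15 and 1.63). Of 7 genes of nucleotide supply, 5 fell and 6 rose, led by RRM2, the regulated subunit of ribonucleotide reductase (-1.58 and 2.29), and TYMS, the thymidylate synthase (-0.86 and 1.36). Among 4 histone chaperones of replication 3 fell and 1 rose under hemin alone, and all 4 rose with nilotinib under hemin. ASF1A went up in both (1.03 and 0.85), whereas its paralog ASF1B had -1.03 and 1.37.

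Of 13 E2F, DP and pocket protein genes, 10 fell and 2 rose under hemin alone, and 9 rose and 1 fell with nilotinib under hemin. E2F1, an activator, had 79.3, 71.9 and 71.0 CPM in mock DMSO, 25.9, 30.3 and 26.6 in hemin DMSO, 103, 82.8 and 98.7 in mock nilotinib, and 117, 59.2 and 61.1 in hemin nilotinib. E2F8, a repressor of the family, changed most, by -1.58 under hemin alone and 2.47 with nilotinib under hemin. E2F6, a repressor that does not bind pocket proteins, went the other way (1.04 and -0.67). Of 7 genes that control turnover of licensing factors, 5 fell under hemin alone and 5 rose with nilotinib under hemin, as in SKP2 (-0.79 and 0.48) and FBXO5 (-0.75 and 1.24). Of 4 subunits of other clamp loaders 2 fell and 4 rose, of 3 small polymerase subunits 0 fell and 1 rose, and of 3 MCM relatives 2 fell and 2 rose, MCM9 being higher in both (0.37 and 0.45).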

How the data were processed

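RNA of K562 cells was sequenced as 150-base paired-end reads, and the authors deposited an unnormalized read count for every gene and each of 12 libraries, 3 for each of 4 conditions. The aligner and the counter are not given in the sources used here. The submitters' processing notes name DESeq2 and GRCh38.p12. The authors also deposited FPKM, in which counts per kilobase are divided by median-of-ratios size factors rather than library totals (checked against the counts). Columns of fold changes and p-values were not used.

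The counts were fitted with edgeR 4.0.16 (R 4.3.3), using filterByExpr (minimum count 10, total 15), TMM factors and a quasi-likelihood fit of 1 mean per condition over all 12 libraries. Tests were two-sided, adjusted by Benjamini-Hochberg over 20821 genes. SE came from the fit. The procedures were tested on simulated data. For 3 libraries against 3 an exact permutation test cannot go below 0.1, so none was run. All 41 members may be named. Every library is given for the licensing factors CDC6, CDT1 and GMNN, for MCM2 to MCM7, MCM10, CDC45 and PCNA, and for the 3 largest called rises and falls of each comparison. GINS4 and E2F1 were added after their values were seen. In other lists at most 3 genes of largest change are named, and results of some genes are not reported here. Members and lists were chosen with earlier results of these data known.

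Alternatives were DESeq2 1.42.0, other or no factors, other filters, limma 3.58.1 on log2(FPKM + 1) and log2(FPKM + 0.1), 6 libraries alone, a 2-fold minimum, a block for the replicate number, and leaving out libraries singly. Deviations of same-numbered libraries correlated above 0.1 in all 3 pairs only between mock and hemin nilotinib (0.199 to 0.263), so the numbers, which come from the labels, were taken to pair only these. Gene overlaps came from GENCODE 29, promoters from RefSeq (GRCh38.p14), and figures from matplotlib 3.10.9 (Python 3.11.15).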

Additional observations from a re-analysis of the deposited data

Results flagged for a closer look

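The nilotinib change differed between cells with and without hemin, by the interaction in the edgeR fit, in 15 of the 41 replication genes. As the log2 change with hemin minus that without, it was 1.66 in POLA2, 1.52 in GINS4, 1.46 in PCNA, 1.45 in MCM4 and 1.13 in FEN1. In POLE it was 0.99, in GINS1 0.93, in MCM3 0.91, in MCM6 0.90, in RFC3 0.90, in RFC5 0.87, in POLE2 0.77, in LIG1 0.68 and in ORC2 0.65. CDC6 was the gene with a negative value, -1.05. Adjusted p ranged from 0.000683 for POLA2 to 0.0300 for LIG1. The calls of ORC2, POLE2 and LIG1 were each lost in at least 1 fit without a library: ORC2 had 0.60 without mock nilotinib replicate 3 (adjusted p = 0.0573) and 0.62 without mock DMSO replicate 3 (0.0502), POLE2 had 0.70 without mock nilotinib replicate 3 (0.0626), and LIG1 missed the threshold without any of 6 libraries (0.0528 to 0.0842). MCM3 had 0.59 and FEN1 0.74 without hemin nilotinib replicate 1. Groups of 3 libraries were too small to look for outlying samples.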

How the results depend on the processing

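No value changed direction past the threshold in any alternative, and of the calls of members 20 of 27 (nilotinib with hemin), 10 of 13 (nilotinib without hemin), 20 of 26 (hemin without nilotinib), 0 of 1 (hemin with nilotinib) and 12 of 15 (interaction) were kept whichever library was left out. With a 2-fold change required in addition, members higher and lower were 12 and 1 for nilotinib with hemin, and 0 and 0 for nilotinib without hemin. There were 8 lower for hemin without nilotinib, 0 lower for hemin with nilotinib and 5 above 0 in the interaction. Of the 20821 tested genes, 4872 were called at that setting for nilotinib without hemin and 6474 for hemin without nilotinib. For hemin with nilotinib 565 were called, and 4073 for the interaction. These totals take both directions together, and none is given for nilotinib with hemin. The member counts at this setting therefore cannot be set against shares of all genes in the same direction.

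For nilotinib with hemin, 1 member was lower without composition factors (26.4% of all genes). The same count held in the 6 libraries alone (28.5%) and there with the replicate block (28.6%). Leaving out single libraries gave 1 to 4 lower members (29.1% to 31.5% of all genes) and medians of 0.44 to 0.84. For nilotinib without hemin, 17 members were higher in the 6 libraries alone and 16 with the replicate block in addition. For hemin without nilotinib, 5 members were higher with upper-quartile factors (29.6% of all genes). There were 4 in the 6 libraries alone, without or with the replicate block (30.4% and 31.2% of all), and the median was -0.74 without factors. That factor choice moved the median of all genes by -0.24 (0.18 for nilotinib with hemin, 0.21 for the interaction), and upper-quartile factors moved it by 0.12 (0.11 for nilotinib without hemin, -0.12 for the interaction).

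For hemin with nilotinib, 1 member (MCM5) was higher with DESeq2 (5.15% of all genes), with all genes of at least 1 count (3.07%) and with genes of at least 10 counts in every library (4.63%). The same held with the replicate block (4.22%) and with the block in the 6 libraries alone (4.25%). In the block over all 12 libraries MCM5 had 0.59 (adjusted p = 0.0455). In the block over the 6 libraries alone, which pairs only these, it had 0.59 (0.0194). No member (0) was lower with limma on either scale (1.83% and 1.47% of all genes) or in the 6 libraries alone (0.345%). Genes called there were 1944 with DESeq2, 1987 with at least 1 count, 741 and 694 with limma and 183 in the 6 libraries alone. Single libraries left out gave 0 to 1 higher members (0.659% to 8.08% of all genes) and 0 to 4 lower members (0.316% to 4.70%). The medians were then -0.24 to 0.16, and 213 to 2793 genes were called. In the interaction 2 members were below 0 with DESeq2 (16.0% of all genes) and 3 with upper-quartile factors (16.2%), and the median was 0.64 without factors. Single libraries left out gave 1 to 2 below 0 (8.39% to 13.2% of all genes) and medians of 0.26 to 0.69. The cause of these shifts was not tested. The replicate block in all 12 libraries moved no other count of members by more than 1.5 times. Each condition had 3 libraries, and their number limits the precision.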
